A study of Mus musculus with 24 samples.

Results

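The data described here are the 4 chromosome conformation capture (4C) libraries that read contacts of the mutated Oct4 allele in the mouse embryonic stem cell line OCF2ΔYY1 (the YY1 line), 2 at day 0 and 2 at day 3, out of 24 libraries in the series. They were chosen by their labels and by the count table that holds them, not by any measured value. Cells at both days carried the genotype OCF2ΔYY1, were of strain C57Bl/6 x 129/Sv and had reached passage 7. The labels name the mutated allele Mut_YY1, place it on chromosome 11 and call the place an insertion region for which no analysis of contacts in cis was made. They give neither the bases that were changed nor the treatment that separates the days, although the series title concerns the onset of differentiation. The replicates are called biological without further detail, so p-values measure only the spread between these libraries.

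In 4C, crosslinked chromatin is cut with a restriction enzyme, here HindIII, and ligated, and the fragments joined to one chosen fragment, the viewpoint, are amplified and sequenced. A fragment near the viewpoint on the same chromosome is usually caught more often than a distant one, because the chromatin fibre keeps neighbours together. Embryonic stem cells need the transcription factor Oct4 (gene Pou5f1) to stay pluripotent, and they silence it as they differentiate. YY1 is a zinc-finger protein that binds enhancers and promoters and can bring them together by pairing with itself.

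The viewpoint fragment was taken as the one with the most counts over the 4 libraries, 8417 against 7124 for the next. It ran from 94813216 to 94826180 on chromosome 11 (mm9), 12965 bases, and the values below leave out this fragment and its direct neighbour on either side. Day 0 replicates 1 and 2 held 252528 and 40785 counts outside it, and day 3 replicates 1 and 2 held 26425 and 2820. A count of 0 therefore allows a share of up to 0.00119%, 0.00736%, 0.0114% and 0.106% of a library's counts. Day 3 replicate 2 also stood apart in the variety of its contacts. At an equal depth of 2820 counts the expected number of distinct fragments was 1454 and 1287 in the day 0 libraries and 1471 in day 3 replicate 1. It was 609 in day 3 replicate 2. The library of that day and replicate number was also the lowest at this depth in the experiments most like this one. In the OctSox line at its mutated allele it had 717.9, against 917.4 to 1207. At the wild-type Oct4 viewpoint of the YY1 line it had 660.1, against 1151 to 1531. Reads carry no molecular identifiers, so the Wilson 95% intervals and the floors given here cover counting error only. Each result on day 3 is given for both libraries so that its reliance on the shallow one can be seen.

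**Figure D1:**
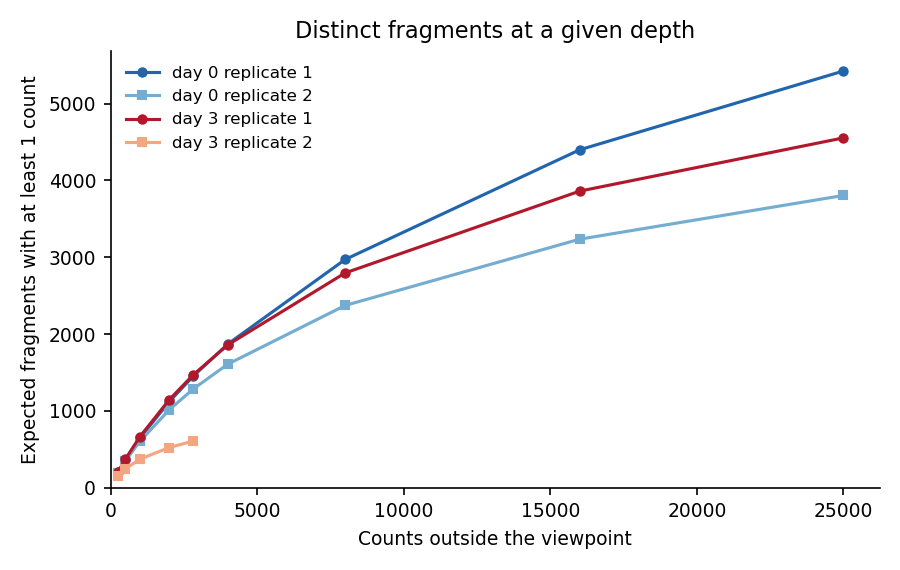
Expected number of HindIII fragments with at least 1 count (vertical axis) against the number of counts drawn from a library (horizontal axis), one line per library. The curve of day 3 replicate 2 ends at 609 fragments at its full depth of 2820 counts, where the other 3 libraries reach 1287 to 1471.

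Close to the mutated allele, 1 of 20 tested fragments within 0.1 Mb passed the test and was higher at day 3. It lies at 94808527 to 94811204, is 2678 bases long and ends 2.01 kb below the viewpoint fragment. It took 0.847% (0.812 to 0.884) and 0.684% (0.609 to 0.769) of counts in the day 0 libraries, against 4.03% (3.8 to 4.27) and 8.97% (7.97 to 10.1) in those of day 3. Both day 3 libraries thus lay well above both of day 0. The difference was 2.86 ± 0.20 (SE) on the log2 scale and passed the quasi-likelihood test (edgeR adjusted p = 5.36e-39). That test called 2 of 428 fragments, or 0.467%. The call was absent without day 0 replicate 2 (1.65, edgeR adjusted p = 1.0), with no filter on low counts (1.59, edgeR adjusted p = 0.801) and with DESeq2 (2.82, adjusted p = 0.235), and without day 3 replicate 1 the value was 1.77. With a trend over distance removed it was 1.36 ± 0.24 and still passed (edgeR adjusted p = 6.23e-06). At day 3 this fragment held 1064 and 253 counts, more than the 339 and 108 of the viewpoint fragment, whereas at day 0 it held 2140 and 279 against 6979 and 991. The fragments that touch the viewpoint, left out of all shares, were lower in counts. The one between it and the viewpoint, 94811211 to 94813209, held 423 and 10 counts at day 0 and 138 and 2 at day 3. The one directly above the viewpoint, 94826187 to 94838816, held 579 and 32 counts against 52 and 5. Set against the counts outside the viewpoint, the days overlapped for both.

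The other leading fragments near the viewpoint did not pass the test. The fragment 94850687 to 94856332, 24.5 kb above the viewpoint, held 1.89% and 2.13% at day 0 and 2.4% and 4.26% at day 3. Its day 3 libraries were the higher ones, by 0.55 ± 0.23 (SE) on the log2 scale (edgeR adjusted p = 0.446). This sign turned to -0.38 without day 0 replicate 2 and to -0.66 without day 3 replicate 1. Its neighbour 94842901 to 94850680, 16.7 kb above, ran the other way, with 2.16% and 2.68% against 2.04% and 1.13% (log2 fold change -0.54 ± 0.26, edgeR adjusted p of 0.616, and -2.82 with an adjusted p of 0.00211 without day 3 replicate 1). The fragment 94901753 to 94923772, 75.6 kb above and 22020 bases long, held 1.3% and 1.44% against 1.04% and 0.248%, which are values without overlap (log2 fold change -0.87, edgeR adjusted p of 0.616). Without day 3 replicate 1 that value was -4.20 (edgeR adjusted p of 0.00013), and without day 3 replicate 2 it was -0.48 (edgeR adjusted p of 0.782). For 94783432 to 94793098, 20.1 kb below, and 94934604 to 94939913, 108 kb above, the libraries of the days overlapped. They held 1.73%, 1.93%, 1.35% and 2.87%, and 1.26%, 1.5%, 1.09% and 1.63%, with day 0 given before day 3. Of these fragments, only those at 2.01 and 24.5 kb were higher in both day 3 libraries.

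**Figure D2:**
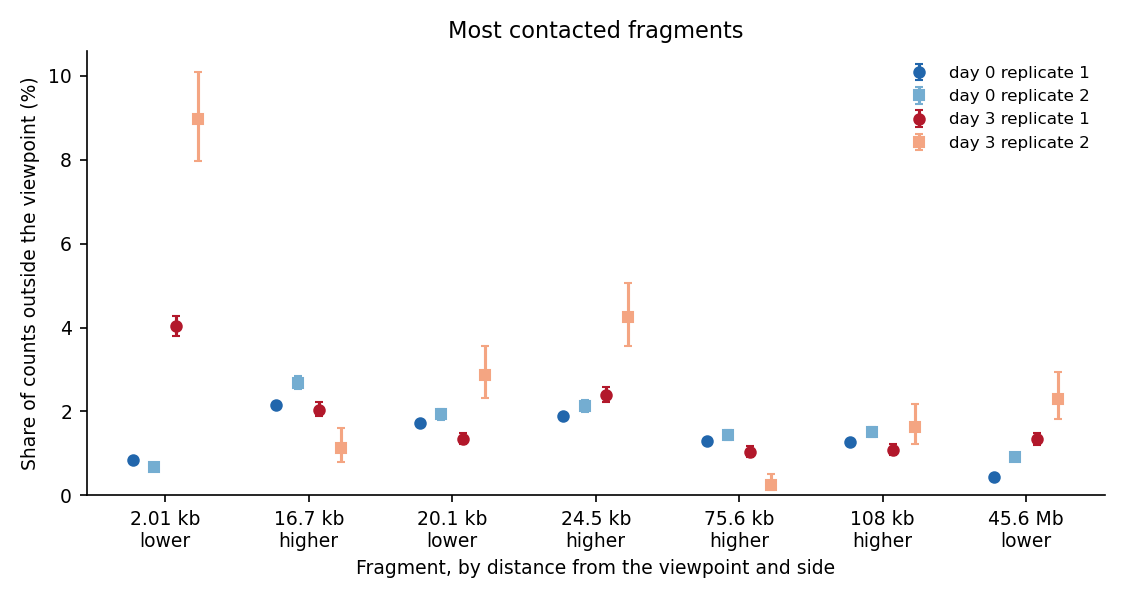
Share of the counts outside the viewpoint (vertical axis, percent) in each library for the 7 most contacted fragments, named by distance and side; bars are Wilson 95% intervals of counting error. Both day 3 libraries stand above both day 0 libraries at 2.01 kb, 24.5 kb and 45.6 Mb, by far the most at 2.01 kb (4.03% and 8.97% against 0.847% and 0.684%).

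Farther out in the neighbourhood of the mutated allele, contacts took a smaller share at day 3. The band from 0.1 to 1 Mb held 33.2% (33.0 to 33.4) of counts in day 0 replicate 1 and 31.95% (31.5 to 32.4) in replicate 2. It held 22.29% (21.8 to 22.8) and 14.79% (13.5 to 16.1) in the libraries of day 3. The means were 32.57% ± 0.883 and 18.54% ± 5.305 (SD, n = 2 each), a change of -14.04 percentage points. Both sides of the viewpoint showed it. On the lower side the shares were 12.9% and 12.5% at day 0 against 8.09% and 7.34%, and on the higher side 20.3% and 19.4% against 14.2% and 7.45%. In steps of 100 kb by the position of the fragments, 16 of 20 had both day 3 libraries below both day 0 libraries, 3 overlapped and 1 was higher. From 100 to 200 kb above the viewpoint the libraries held 6.5% and 6.45% of counts, against 4.62% and 3.72% at day 3, and from 400 to 500 kb above it 2.4% and 2.25% against 1.41% and 0.284%. From 100 to 200 kb below it the shares were 2.03% and 2.21% against 0.882% and 1.06%.

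**Figure D3:**
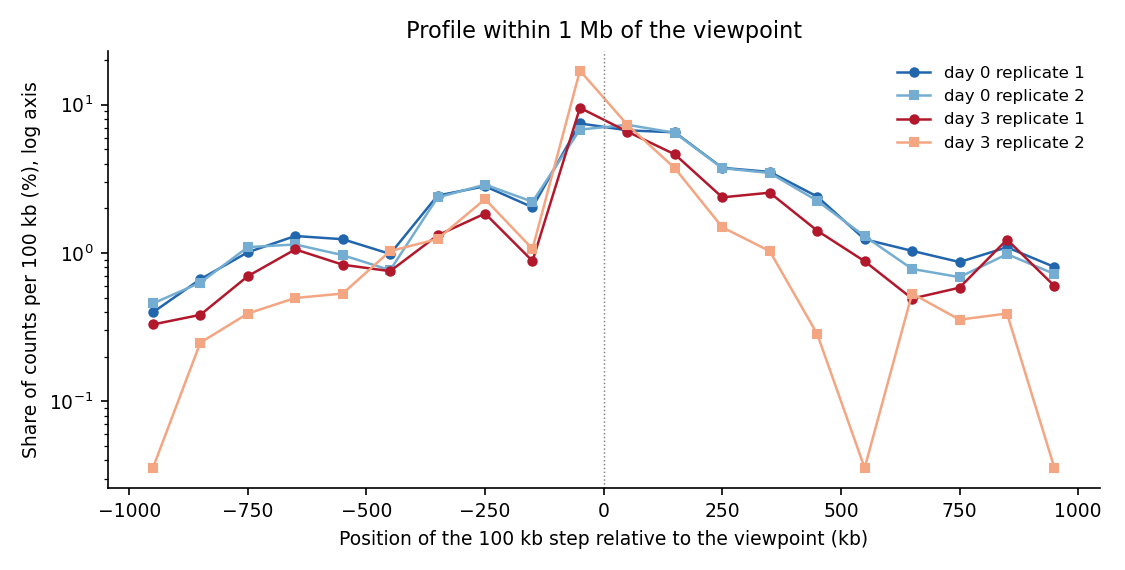
Share of counts per 100 kb step (vertical axis, percent, log scale) by the step's position relative to the viewpoint (horizontal axis, kb, lower coordinates to the left), one line per library. Both day 3 lines run below both day 0 lines in 16 of 20 steps, and the step just below the viewpoint is the only one where both run above.

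Fragment by fragment the same band was mostly lower. Of the 222 tested fragments at 0.1 to 1 Mb, 180 had a log2 fold change below 0 and 42 above, with a median of -0.89, whereas the median over all 428 fragments was -0.42. Both day 3 shares were below both day 0 shares for 117 of the 222 and above for 8. Over all 428 fragments tested they were below for 165 (38.6%) and above for 42 (9.81%). No single one of the 222 passed edgeR's adjusted threshold, and 6 had an unadjusted p under 0.05, all 6 lower. Over all 428 fragments 32 had such a p, 18 lower and 14 higher, which is a larger part than in this band. A fragment entered the test if it passed a minimum level in at least 2 of the 4 libraries, so that one high at a single day could enter through that day, and the counts of fragments are a description.

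Within 0.1 Mb lay 15.18% and 15.1% of counts in the day 0 libraries, against 16.65% and 24.68%, a change of 5.526 points that was 1.51 without day 3 replicate 2. That difference rested on the fragment at 2.01 kb. With it left out, a step added after the values were seen, the day 0 libraries held 14.5% and 14.5% and the others 13.2% and 17.3%, which overlap. The same fragment weighed on the balance of the sides. Within 1 Mb the lower side held 42.05% and 41.02% of counts at day 0 and 45.2% and 61.55% at day 3, and without the fragment 41.0% and 40.1% against 38.9% and 50.2%, which overlap. The change of this share, 11.84 points with the fragment, was 3.67 without day 3 replicate 2. The bands of 1 to 5 Mb and 5 to 20 Mb changed less. They held 11.85% and 11.51% against 11.96% and 8.085%, and 25.15% and 24.33% against 23.55% and 19.61%. At 5 to 20 Mb the day 3 libraries were the lower ones (-3.162 points, and -1.19 without day 3 replicate 2), and at 1 to 5 Mb the days overlapped.

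Far contacts took a larger part at day 3. In day 0 replicates 1 and 2, 14.62% (14.5 to 14.8) and 17.11% (16.7 to 17.5) of counts lay over 20 Mb from the viewpoint. The same share was 25.55% (25.0 to 26.1) and 32.84% (31.1 to 34.6) in those of day 3. Means were 15.9% ± 1.76 and 29.2% ± 5.15 (SD, n = 2 each). In both this band and that of 0.1 to 1 Mb the days did not overlap, and the exact two-sided permutation p was 0.33, the smallest that 2 against 2 libraries allow. The slope of contact on distance between 20 kb and 20 Mb did not separate the days, at -1.026 and -1.033 against -0.983 and -1.067.

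**Figure D4:**
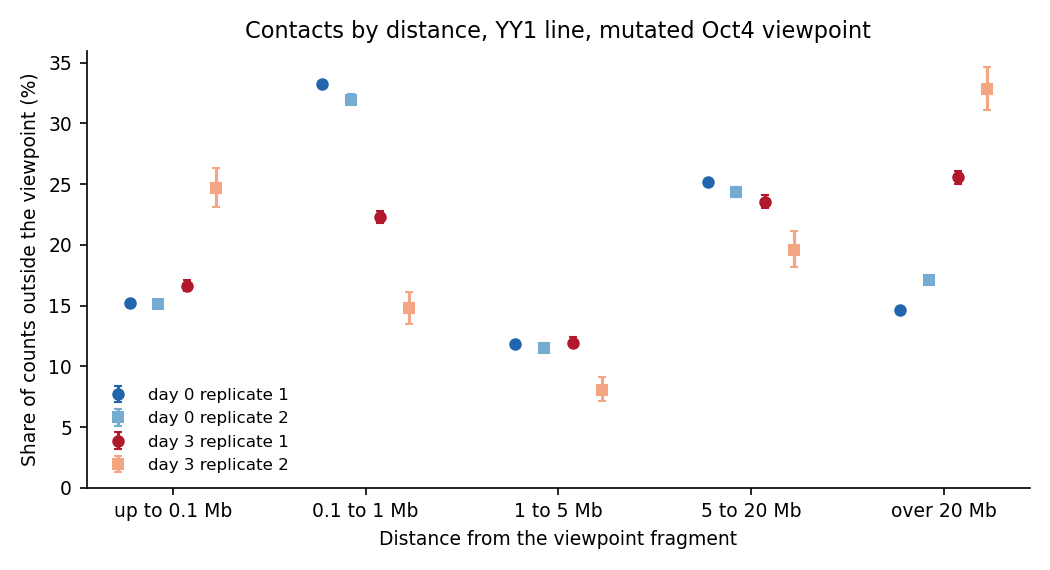
Share of the counts outside the viewpoint (vertical axis, percent) in 5 bands of distance for each library; bars are Wilson 95% intervals of counting error. Both day 3 libraries lie below both day 0 libraries at 0.1 to 1 Mb (22.29% and 14.79% against 33.2% and 31.95%) and above them over 20 Mb (25.55% and 32.84% against 14.62% and 17.11%).

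The larger far share lay on the side of lower coordinates, which reaches farther from the viewpoint. Its ratio between the days was larger at greater distance. On the side of lower coordinates, 20 to 40 Mb away, the mean share was 6.52% ± 0.44 at day 0 and 8.22% ± 1.45 at day 3 (SD, n = 2 each), a ratio of 1.26. At 40 to 60 Mb it went from 2.49% ± 0.477 to 7.05% ± 1.97, a ratio of 2.83, and over 60 Mb from 1.49% ± 0.403 to 9.4% ± 6.61, a ratio of 6.33. Day 3 replicate 1 alone, the deeper of the pair, gave ratios of 1.42, 2.27 and 3.18 over the mean of day 0. The side of higher coordinates ends nearer, with its farthest tested window 26.2 Mb away. It has 1536 fragments over 20 Mb away, against 9219 over 60 Mb away on the lower side. Over 20 Mb away on the higher side the days overlapped, with 5.06% and 5.68% against 5.91% and 3.12%.

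Sums over windows of 1 Mb showed the same arrangement along the chromosome. Of the 69 tested windows over 20 Mb away on the lower side, 55 had a log2 fold change above 0, with a median of 1.14. In 45 of the 69 (65.2%) both day 3 libraries were above both day 0 libraries, against 43.6% of all 117 windows tested. All 7 windows over 20 Mb on the higher side, 20.2 to 26.2 Mb away, were below 0 (median -0.65). So were the lower-side windows that start at 67 to 73 Mb, 20.8 to 26.8 Mb away. Windows farther away than these lay on the lower side alone. Within 20 Mb, 38 of 41 windows were below 0 (median -0.62), and the median over all windows was -0.01. Scaling by total count moved that median to 0.44, and the counts above 0 became 67 of 69, 2 of 7 and 15 of 41. Without day 3 replicate 2, 56 of 71 windows on the far lower side were above 0, with a median of 0.79. No single window passed edgeR's test (0 of 117, or 0.0%), with 12 higher and 11 lower at an unadjusted p under 0.05. DESeq2 called 12 of the 117 (10.3%), of which 11 were higher and lay 53.8 to 90.8 Mb away on the lower side. A window, like a fragment, could enter the test through day 3 alone. Of the 11, those at 7 to 8, 13 to 14, 15 to 16, 16 to 17, 28 to 29 and 37 to 38 Mb did so. From 28 to 29 Mb, for example, the day 0 shares were 0.0135% and 0.0049%. The higher day 3 shares of these windows were thus set by the filter. In windows of 0.5 Mb edgeR called 12 of 209 (5.74%), 11 of them higher. Most of these 11 also entered through day 3 alone, such as 13 to 13.5 Mb, with 0.000792% and 0.0% at day 0. Their direction was set by the filter, so they add no separate evidence of a rise.

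**Figure D5:**
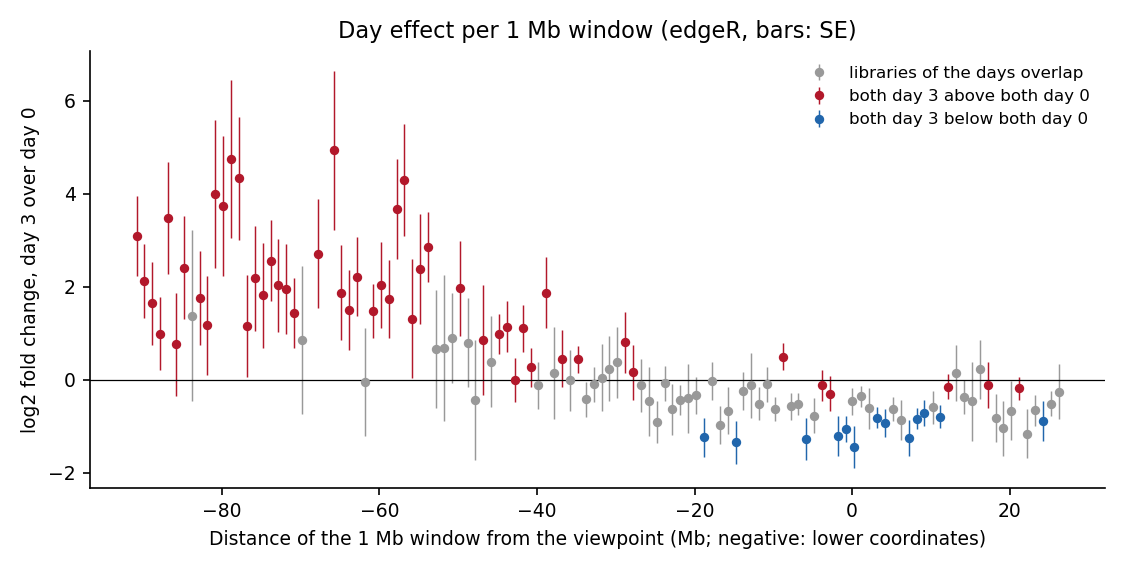
Log2 fold change of day 3 over day 0 with its SE (vertical axis) for 117 windows of 1 Mb by distance from the viewpoint (horizontal axis, Mb, lower coordinates negative); colours mark windows whose libraries do not overlap between the days. Windows over 20 Mb away on the lower side have a median of 1.14 and those within 20 Mb a median of -0.62, and no window passed the adjusted threshold.

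Among the windows with the smallest p, 3 were far away and higher in both day 3 libraries. The window from 40 to 41 Mb, 53.8 Mb from the viewpoint, held 0.0273% and 0.0662% of counts against 0.579% and 0.284% (log2 fold change 2.85 ± 0.76, edgeR adjusted p of 0.206). The window from 37 to 38 Mb held 0.0123% and 0.0123% against 0.11% and 0.603% (4.30 ± 1.21, edgeR adjusted p of 0.206). This window entered the test through the day 3 libraries alone, so its being higher there was set by the filter. The window from 3 to 4 Mb, at the start of the listed chromosome, held 0.103% and 0.159% against 0.492% and 2.62% (3.09 ± 0.86, edgeR adjusted p of 0.206). The other 2 were lower at day 3. They were 93 to 94 Mb, with 2.13% and 1.99% against 1.62% and 1.03% (-1.07 ± 0.28), and 103 to 104 Mb, with 1.57% and 1.67% against 1.26% and 1.21% (-0.84 ± 0.23). Single libraries moved several of these values. Without day 3 replicate 2 the log2 fold change of 3 to 4 Mb was 1.37 (edgeR adjusted p of 0.00445) and that of 37 to 38 Mb 2.55 (0.175). Without day 3 replicate 1 they were 4.00 (edgeR adjusted p of 0.00547) and 5.21 (0.0105). The window from 40 to 41 Mb passed without day 3 replicate 2 (3.19, edgeR adjusted p of 9.38e-11), and those from 93 to 94 and 103 to 104 Mb without day 3 replicate 1 (edgeR adjusted p of 0.0138 and 0.0359). Such a fit has 1 library at day 3 and takes its spread from day 0.

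The window next above that of the viewpoint had the largest difference in share. From 95 to 96 Mb the day 0 libraries held 16.5% and 15.5% and those of day 3 11.6% and 4.5%, or -1.44 ± 0.46 (SE) on the log2 scale. Its adjusted p was 0.206 by edgeR and 0.0199 by DESeq2, and without day 3 replicate 1 the value was -2.21 (edgeR adjusted p of 0.00494). The window of the viewpoint itself, from 94 to 95 Mb, held 32.1% and 31.6% against 27.7% and 34.9%, and 96 to 97 Mb held 3.55% and 3.5% against 4.05% and 3.44%, both with overlap. Shares from 98 to 99 Mb were 2.11% and 2.05% against 1.76% and 1.45%. Of the 27 windows on the higher side, 8 were lower in both day 3 libraries, 3 were higher in both and the others overlapped. Over all 117 windows tested, 13 (11.1%) were lower in both and 51 (43.6%) higher.

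How widely far counts were spread over fragments, and how many fragments recurred, depended on the library. The most counted far fragments that together held at least as many counts as all the rest numbered 558 and 217 at day 0. At day 3 they numbered 326 and 41. Over 20 Mb away, 4035 and 1544 of 21635 fragments were seen at day 0 and 1988 and 286 at day 3, with 9.15, 4.52, 3.4 and 3.24 counts per fragment seen. Of the 286 in day 3 replicate 2, 76 (26.6%) were also in day 3 replicate 1 and 110 (38.5%) in day 0 replicate 1, the deepest library. Of the 1988 in day 3 replicate 1, 989 (49.8%) were in day 0 replicate 1 and 443 (22.3%) in day 0 replicate 2. Of the 1544 in day 0 replicate 2, 957 (62.0%) were in day 0 replicate 1. Only 19 fragments were seen in all 4 libraries. Fragments seen in both day 3 libraries and in neither of day 0 numbered 25 in this band. The reverse, seen in both of day 0 and in neither of day 3, numbered 590, at depths that differ as given above. Over the whole chromosome, with 31862 fragments against the 21635 of this band, the same counts were 31 and 1762.

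Profiles over 1 Mb windows ranked much alike in 3 of the libraries. Over the 79 windows more than 20 Mb away, Spearman's rho was 0.902 between the day 0 libraries and 0.886 and 0.891 between each of them and day 3 replicate 1. Day 3 replicate 2 gave 0.34, 0.316 and 0.349 with the other 3. These windows share their libraries and the fall of contact with distance, so the values are descriptive. Which far windows were contacted more thus ranked similarly in day 3 replicate 1 and at day 0, while the far share was larger.

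A single distant fragment carried the most far counts at both days. It runs from 49209359 to 49209845, is 487 bases long and lies 45.6 Mb below the viewpoint. It took 0.445% and 0.917% of the day 0 libraries and 1.34% and 2.3% of the others, so the days did not overlap. The difference, 1.27 ± 0.41 (SE) on the log2 scale, did not pass (edgeR adjusted p = 0.288). It was 0.09 without day 3 replicate 1 and 0.25 with a trend over distance removed. In the 4 libraries of the OctSox line at the mutated allele it had 0, 0, 3 and 1 counts, at most 0.0311%, and the interaction of line and day was -4.22 ± 2.95 (edgeR adjusted p of 0.878). The other distant fragments that led at day 0 were carried by few libraries. The fragment 63289746 to 63290139 had 174 counts in day 0 replicate 2 and 0 in the other 3 libraries. The fragment 117260309 to 117263845 had 36 and 183 counts at day 0 and 1 and 0 at day 3. The fragments 69403939 to 69405928 and 116047568 to 116048876 had 61 and 51, and 71 and 36, against 0 in both libraries of day 3.

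The other distant fragments that led at day 3 lay toward the other end of the chromosome, as did a called fragment that was not among the leaders. The fragment 3686846 to 3689366, 91.1 Mb away, had 10 and 18 counts at day 3 against 0 at day 0 and was the remaining call of edgeR, with an adjusted p of 0.00705. Its shares were 0.0378% and 0.638% at day 3, against up to 0.00119% and 0.00736% that a count of 0 allows in the day 0 libraries. It entered the test through the day 3 libraries alone, so its being higher there was set by the filter. DESeq2 called it too, as its only fragment (adjusted p of 7.94e-05; 0.234% of 428). The call was lost without either day 0 library (adjusted p of 0.995 and 1.0), with the replicate number as a block (0.571) with no filter on low counts (0.801) and with a distance trend removed (0.0821). A fragment at 3076125 to 3078154 had 5 and 30 counts against 0 and did not enter the test. The fragments 4820041 to 4826504, 15538314 to 15541452 and 16873963 to 16879284 had 21, 20 and 20 counts in day 3 replicate 2 and 0 in day 3 replicate 1, so these 3 lead through the shallow library alone.

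The remaining fragments with small p values lay at intermediate range. The fragment 90260030 to 90261357, 4.55 Mb below, had 15 and 0 counts in the day 0 libraries and 12 and 9 in the others (edgeR adjusted p of 0.446). It passed with a trend over distance removed (5.65, edgeR adjusted p of 0.0158) and without day 3 replicate 1 (4.42, edgeR adjusted p of 0.0419). The fragment 76993744 to 76995366, 17.8 Mb below, had 29 and 0 against 18 and 10, and 83112605 to 83116182, 11.7 Mb below, had 5 and 3 against 24 and 1, with the same adjusted p. All 3 entered the test through their day 3 shares, so their higher shares at day 3 were set by the filter.

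Set beside the OctSox line (OCF2ΔOCT4/SOX2, same strain and passage, 2 libraries per day), whose viewpoint is a differently mutated allele at the same place, none of the 5 bands was shown to differ in its change. At 0.1 to 1 Mb the change was -14.04 points in the YY1 line and -8.422 in the OctSox line. The difference was -5.615 points, with an exact permutation p = 0.33 over 36 arrangements of the line labels within days (adjusted p = 0.648 over 10 tests). Over 20 Mb the changes were 13.33 and 9.035 points, a difference of 4.295 (exact permutation p = 0.389, adjusted p = 0.648). Signs were opposite within 0.1 Mb, with 5.526 points against -0.0372 (exact permutation p = 0.611, adjusted p = 0.834), and at 1 to 5 Mb, with -1.657 against 1.384 (exact permutation p = 0.222, adjusted p = 0.648). At 5 to 20 Mb they were -3.162 and -1.96 points (exact permutation p = 0.889, adjusted p = 0.889). At the wild-type Oct4 viewpoint on chromosome 17 of the YY1 line, the change at 0.1 to 1 Mb was -7.54 points. Over 20 Mb it was 9.936 points. The differences were -6.497 (exact permutation p = 0.111, adjusted p = 0.648) and 3.394 (exact permutation p = 0.667, adjusted p = 0.834). Within 0.1 Mb the signs were opposite, with 5.526 points at the mutated allele against -2.883. This difference was 8.408 (exact permutation p = 0.389, adjusted p = 0.648). At 5 to 20 Mb the signs were opposite too, with -3.162 against 1.265 (adjusted p = 0.648 by exact permutation). At 1 to 5 Mb the changes were -1.657 and -0.7782 points (exact permutation p = 0.889, adjusted p = 0.889). With 2 libraries per group these tests have little room to show a difference.

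On the lower side over 60 Mb away, the OctSox libraries of day 0 held 4.9% and 3.59% and those of day 3 held 7.19% and 13.0%, a ratio of 2.37 that was 1.69 with day 3 replicate 1 alone. Its difference from the ratio in the YY1 line was not tested. The fragment at 2.01 kb had a log2 fold change of 0.99 ± 0.92 (SE) in the OctSox line (edgeR adjusted p of 0.997), and the interaction of line and day there was 1.84 ± 1.06 (edgeR adjusted p of 0.777). For 37 to 38 Mb the interaction was 5.05 ± 1.72 (edgeR adjusted p of 0.453). The interaction test called 0 of 659 fragments and 0 of 119 windows by edgeR (0.0% each), with 36 and 9 at an unadjusted p under 0.05. DESeq2 called 0 fragments and 2 windows, 28 to 29 and 37 to 38 Mb, with higher day 3 over day 0 ratios in the YY1 line (adjusted p of 0.0286 and 0.0453).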

How the data were processed

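The submitters' processing notes name Bowtie and the build mm9, and how reads were counted is not given in the sources used here. Whole-number counts for each HindIII fragment were deposited, without normalization, with a list of fragment positions in the same order (31865 fragments on chromosome 11, 1-based). The viewpoint was the fragment with the highest pooled count. It and 1 fragment on either side were left out. Shares are percentages of the remaining counts, and distances run between fragment edges. edgeR 4.0.16 in R 4.3.3 tested fragments and 1 Mb windows (TMM, glmQLFit, glmQLFTest) that passed filterByExpr at a minimum count of 10, with Benjamini-Hochberg adjustment at 0.05. The SE is the absolute log2 fold change over the square root of F. Scaling, filter, viewpoint exclusion, window size, replicate block, each replicate left out and DESeq2 1.42.0 were alternatives. Shares were compared by exact permutation. Distinct fragments at equal depth follow the hypergeometric formula. Named regions are all calls, the 5 smallest p that did not pass, the 5 most contacted per day and the 5 most contacted over 20 Mb away per day, where a fragment under 20 kb from another of smaller p was skipped among the 5 smallest p. Members, lists and tests were chosen with earlier results of these data known. The scripts were tested on simulated data. No gene was assigned to a fragment, because the annotation at hand is of another build.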

Additional observations from a re-analysis of the deposited data

How the results depend on the processing

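edgeR's 2 calls among 428 fragments became 1 with DESeq2 and 1 with the replicate block, each over 428. They became 1 of 115 with a minimum count of 30 and 1 of 412 with 10 fragments on either side left out. With no filter on low counts they became 0 of 12332. Leaving out 1 library gave 0 to 64 calls: 1 and 0 without day 0 replicates 1 and 2, 64 (17 higher, 47 lower) without day 3 replicate 1 and 14 (12 higher, 2 lower) without day 3 replicate 2. Each such fit has 1 library in one day, which is assumed to vary like the other day's pair. For windows, 0 calls became 12 with DESeq2, 12 in windows of 0.5 Mb, 1 (a fall) in windows of 2 Mb, and 0 to 47 without 1 library (47 without day 3 replicate 1, 4 without day 3 replicate 2). The window interaction gave 2 with DESeq2 and 0 to 2 without 1 library. Same-numbered replicates did not deviate together (correlations of 0.0686 over fragments and -0.00326 over windows), so the numbers are not taken as pairs; the replicate block left the call at 2.01 kb with a log2 fold change of 2.86, changed no window call and moved the fragment calls from 2 to 1.

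Signs turned for fragments that had not passed: 94783432 (0.19 scaled by total count, 0.30 with a minimum count of 30, 0.05 with nothing left out), 94850687 (-0.62 with no filter; -0.66 to 0.41 without 1 library), 94934604 (0.12 with a minimum count of 30, 0.54 with a distance trend removed) and the window from 96 to 97 Mb (0.09 scaled by total count). The change within 0.1 Mb (5.53 points) was -0.174 with 10 fragments on either side left out, 1.35 with fragments counted in place of counts, 0.517 with each fragment held to 0.5% of its library and 0.72 without the fragment at 2.01 kb. Counting fragments in place of counts turned the sign at 0.1 to 1 Mb, with 3.68 points against -14.04. It gave -10.4 at 5 to 20 Mb and 7.43 over 20 Mb. For the lower-side share it gave 0.407 against 11.84 within 1 Mb. Within 5 Mb that share turned sign too, with -3.87 against 9.613. Over 20 Mb the change was 17.9 points with 10 fragments on either side left out. The share of the 10 most counted fragments changed by 6.75 points, and by 0.552 with fragments held to 0.5%. The difference from the OctSox line turned to -0.276 within 0.1 Mb and to 0.248 at 5 to 20 Mb with 10 fragments left out. The cause was not tested. Depth limits day 3 most, at 26425 and 2820 counts.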

Other observations

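At the start of the listed chromosome, the mutated allele of the OctSox line had higher shares at day 3 that did not pass the test. From 3 to 4 Mb, which holds 245 fragments, that line's libraries had 0.593% and 0.369% at day 0 and 3.93% and 1.77% at day 3. The log2 fold change there was 2.50 ± 0.78 (SE), with an edgeR adjusted p of 0.106. In its day 3 replicate 1, 2314 of the 2535 counts lay on 1 fragment, and without it the share was 0.343%. With the highest fragment of each day 0 library left out likewise, their shares were 0.46% and 0.128%, so the days overlapped for that library. In day 3 replicate 2 of the YY1 line, 30 and 18 of the 74 counts of this window lay on the fragments that start at 3076125 and 3686846. At the wild-type viewpoint of the YY1 line, the window from 3 to 4 Mb of chromosome 17 held 0.117% and 0.2% at day 0 and 0.355% and 0.0564% at day 3, so its days overlapped.

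Fragments seen over 20 Mb away had a longer median length than all fragments of that range, which include them. Their median length was 2819 and 2757 bases in the day 0 libraries and 3159.5 and 3061.5 in those of day 3, against 2586 over all 21635 fragments there. At 0.1 to 1 Mb the fragments seen had a median of 2630 and 2532 bases at day 0 and 2816 and 4487.5 at day 3, against 2732.5 over all 426.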
